A study of Mus musculus with 6 samples.

Results

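Enzymes that make and break down arginine and enzymes of the polyamine pathway were followed in 4T1 cells, an established line from a mammary tumour of a BALB/c mouse. The set holds 10 genes of the 31017 in the count table, taken by name: Ass1, Asl, Arg2, Oat, Odc1, Amd1, Srm, Sms, Sat1 and Oaz1. The names were chosen by pathway with the values of this comparison already known, so their differences between groups are given as a description, with an interval and no p-value. Poly(A) RNA was sequenced from 6 libraries of cells nucleofected with Cas9 and grown in collagen I gels. In 3 of them the cells had received control guide RNAs (control replicates 1 to 3), and in 3 guides against FGFR2, 1 of the receptors through which fibroblast growth factors signal (FGFR2 KO replicates 1 to 3). The labels name 2 collagen concentrations, 1.2 mg/ml and 2.4 mg/ml, without saying which library had which, and do not say whether the KO cells were a pool or a clone. Before lysis, all gels were digested with collagenase for 10 and then 5 min.

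Arginine is made from citrulline by argininosuccinate synthase (Ass1) and argininosuccinate lyase (Asl), and is split by arginase into urea and ornithine. Ornithine either enters proline and glutamate metabolism through ornithine aminotransferase (Oat) or is decarboxylated to putrescine by ornithine decarboxylase (Odc1), the entry step of polyamine synthesis. Spermidine and spermine are then built with aminopropyl groups that come from S-adenosylmethionine, acetylation and oxidation run the pathway backwards, and antizyme (Oaz1) binds ornithine decarboxylase and directs it to the proteasome. Many tumours have low ASS1 and depend on arginine from outside, and ornithine decarboxylase is a textbook target of the transcription factor MYC.

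The libraries held 15531790 to 20447719 counts. Levels are given as CPM (read counts of a gene scaled to a common library size, with TMM factors). Fgfr2 itself was present in all libraries, at 96.9, 95.9 and 106 CPM in control replicates 1 to 3 and 101, 81.2 and 95.2 CPM in KO replicates 1 to 3, and did not pass the test (log2 fold change -0.11, SE 0.056, edgeR quasi-likelihood adjusted p = 0.113). Without KO replicate 1 it passed, at -0.17 (edgeR adjusted p = 0.0081). The total over the gene does not check the label, since the position of the guides is not given. All 6 epithelial markers were present, with a summed level of 4890 to 5010 CPM in control and 4020 to 4100 CPM in KO libraries. They did not all move with their sum, since 1 was called higher and 5 lower in the KO libraries. Of all tested genes, 54.6% were called. Of 9 leukocyte markers, 4 were at 0 counts in every library, among them Adgre1, Cd3e and Ly6g, and the sum was 14 to 15.9 CPM in control and 5.99 to 8.64 CPM in KO libraries, most of it Cd68 (13.7 and 5.97 CPM on average). The 7 fibroblast markers summed to 36.3 to 38.2 CPM in control and 39.7 to 45.4 CPM in KO libraries, with Lum and Thy1 at 0 counts. Nearly all of it was Pdgfra (36.4 and 39.4 CPM on average), whose groups overlapped and which did not pass (edgeR adjusted p = 0.143). Of the 2 fibroblast markers that could be tested, 1 was called higher in KO libraries, from few counts. The 5 endothelial markers summed to at most 0.856 CPM. The epithelial, leukocyte and fibroblast sums moved with the groups, and their part in the results was not tested.

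Start regions of 7 of the 10 genes, all but Asl, Arg2 and Srm, were matched in a table of RefSeq promoters (build GRCm38.p6, 250 bases before to 50 after each annotated start). The E-box CACGTG, which reads the same on both strands and is the site bound by MYC with MAX, was looked for in each window. It was found in the window of Ass1 and in 1 of 2 windows of Sms, and in 7.15% of all 32851 windows of this length. These windows are shown because Ass1 had the widest difference of the set and Sms, with the same 6 letters, differed the other way. The capitals mark the E-box, which began 36 bases before the annotated start in Ass1 and 196 bases before it in Sms.
Ass1 (chr2:31470020-31470319, plus strand): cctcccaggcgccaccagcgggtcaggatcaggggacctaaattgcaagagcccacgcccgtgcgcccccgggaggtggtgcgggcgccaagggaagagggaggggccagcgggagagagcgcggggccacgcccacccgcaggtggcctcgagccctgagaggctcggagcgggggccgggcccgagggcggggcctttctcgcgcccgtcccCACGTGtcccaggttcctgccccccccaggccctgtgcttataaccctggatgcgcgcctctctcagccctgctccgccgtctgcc
Sms (chrX:157492238-157492537, minus strand): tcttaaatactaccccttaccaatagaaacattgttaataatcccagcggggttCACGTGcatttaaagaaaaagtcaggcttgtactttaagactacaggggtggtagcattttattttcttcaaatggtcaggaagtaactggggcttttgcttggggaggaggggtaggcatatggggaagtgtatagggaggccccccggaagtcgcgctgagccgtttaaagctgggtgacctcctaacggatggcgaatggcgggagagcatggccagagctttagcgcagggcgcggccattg
The Ass1 start in RefSeq lies 63 bases inside the start of the GENCODE M21 gene, and that of Odc1, shown next, 79 bases inside, so part of both windows is transcribed in that annotation. The marked E-box of Ass1 lies in that transcribed part.

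The windows of Odc1 and Amd1, which open the putrescine and the aminopropyl branch of polyamine synthesis, are shown for contrast, since neither window holds the E-box. Each window ends 50 bases after the annotated start, and the rest of the gene was not searched. In the Odc1 window the capitals mark 4 GC boxes (GGGCGG on either strand), the letters that SP1 binds, and 35.7% of all windows hold at least 1. In the Amd1 window they mark 2 overlapping matches of TATAA, 1 on each strand, and 24.9% of all windows hold that short motif. Each window has only 1 kind of motif in capitals. The Ass1 window also holds 1 GC box and 2 matches of TATAA, and the Amd1 window 1 GC box, so these motifs do not set the windows apart.
Odc1 (chr12:17544623-17544922, plus strand): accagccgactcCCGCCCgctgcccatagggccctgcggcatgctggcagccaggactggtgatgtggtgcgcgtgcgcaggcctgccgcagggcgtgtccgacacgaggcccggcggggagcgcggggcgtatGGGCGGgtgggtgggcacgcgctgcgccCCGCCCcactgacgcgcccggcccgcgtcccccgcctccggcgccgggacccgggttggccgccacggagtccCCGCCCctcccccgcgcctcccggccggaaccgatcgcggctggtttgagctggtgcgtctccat
Amd1 (chr10:40302139-40302438, minus strand): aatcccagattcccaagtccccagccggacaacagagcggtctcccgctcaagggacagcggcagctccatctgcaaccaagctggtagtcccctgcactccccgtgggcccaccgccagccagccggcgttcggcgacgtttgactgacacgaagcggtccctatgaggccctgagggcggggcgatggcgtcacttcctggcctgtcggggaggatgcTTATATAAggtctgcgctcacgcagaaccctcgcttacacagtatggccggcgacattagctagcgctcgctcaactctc
The amino acid response element TGATGNAAT, searched on both strands, was in 0 of the 8 windows of the set and in 0.965% of all windows. A match describes letters only, and no binding was measured.

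The 2 enzymes of arginine synthesis lay on opposite sides. Ass1 (chromosome 2, 31470207 to 31520672) stood at 10.4, 11.1 and 12.7 CPM in control replicates 1 to 3 and at 91.8, 85.7 and 93.4 CPM in KO replicates 1 to 3. Every KO library lay far above every control library. The log2 fold change, KO over control, was 2.99 (SE 0.070, 95% interval 2.85 to 3.14), or 7.96-fold, and its size ranked 85 among 12158 tested genes. Behind these values were 190 to 226 counts in a control library and 1678 to 1891 in a KO library. In bulk RNA, a change in the number of cells that express a gene and a change in RNA per cell cannot be told apart.

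Asl, the lyase that follows (chromosome 5, 130011258 to 130029247), was lower in the KO libraries, at 35.0, 34.4 and 31.6 CPM against 47.2, 50.1 and 53.1 CPM in the control. The groups did not overlap, and the log2 fold change was -0.57 (95% interval -0.70 to -0.44, SE 0.064). Per kb of exon, the ratio of Ass1 to Asl was 0.439, 0.445 and 0.479 in the control libraries and 5.24, 4.98 and 5.92 in the KO libraries. The synthase transcript was thus the scarcer of the pair in every control library and the more abundant in every KO library. With the mean length of the coding transcripts in place of all annotated exons, the levels were 6.72 and 35.8 CPM per kb for Ass1 and Asl in the control and 53.2 and 24.1 CPM per kb in KO libraries, with the same order.

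**Figure D1:**
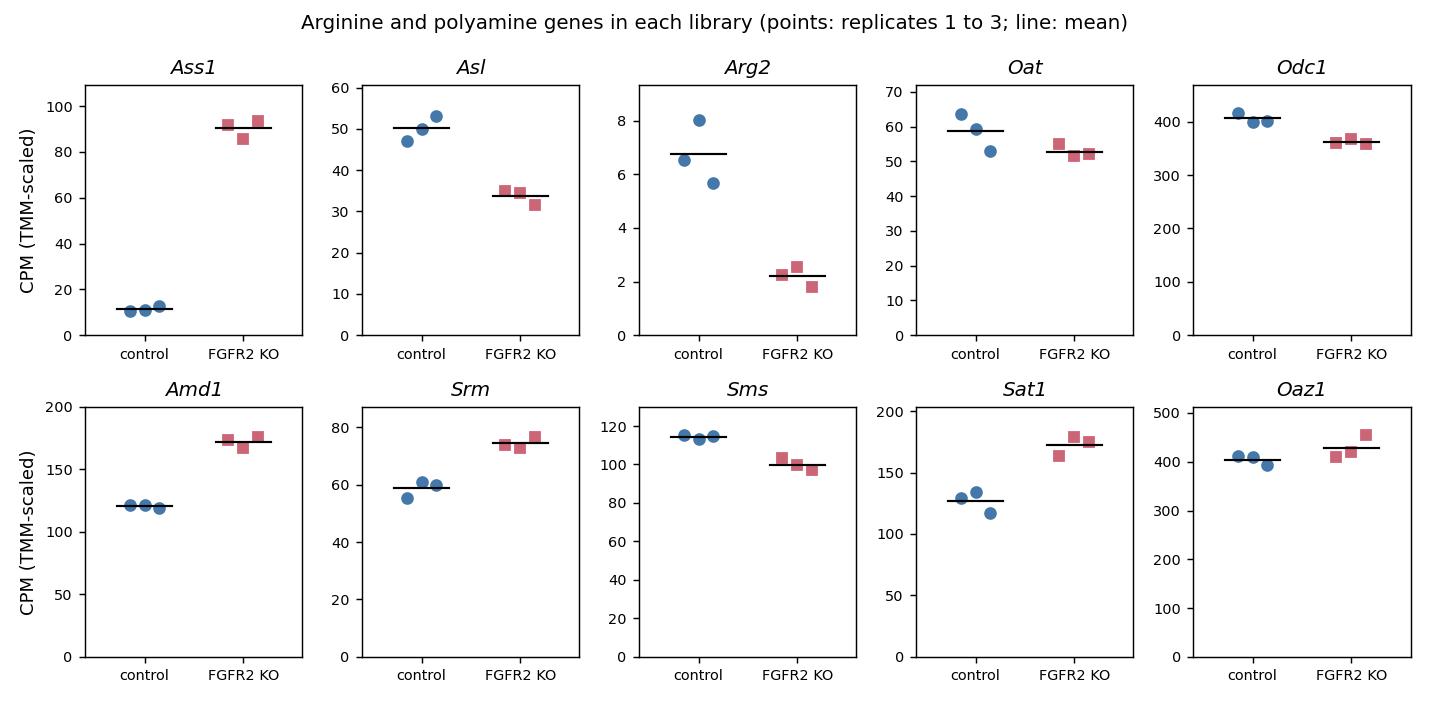
CPM of the 10 genes in each library, control (circles) and FGFR2 KO (squares), 3 libraries a group, with a line at each group mean and each axis from 0. Ass1 stands at 10.4 to 12.7 CPM in control and 85.7 to 93.4 CPM in KO libraries, and only Oat and Oaz1 have groups that overlap.

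Arg2, the mitochondrial arginase (chromosome 12, 79130777 to 79156301), was low throughout and lower in the KO libraries. It stood at 6.54, 8.03 and 5.68 CPM in control and 2.25, 2.55 and 1.78 CPM in KO libraries, from 88 to 163 and 36 to 50 counts. The groups did not overlap, and the log2 fold change was -1.63 (95% interval -2.03 to -1.24, SE 0.19). The exons of Arg2 share 285 bases, 20.0% of their length, with Vti1b on the other strand, and the strand setting of the counting is not given, so reads there cannot be told apart. Vti1b stood at 65.2 ± 2.29 CPM in control and 69.1 ± 2.06 CPM in KO libraries (SD, n = 3). A further 116 bases are shared with the antisense gene Gm48780, which was below 1 CPM in every library.

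Oat (chromosome 7, 132557478 to 132576398) showed a small difference, with 63.7, 59.3 and 53.1 CPM in control and 54.9, 51.4 and 52.1 CPM in KO libraries. Its groups overlapped, since control replicate 3 fell below KO replicate 1. The log2 fold change was -0.16 (95% interval -0.28 to -0.04, SE 0.060), and it went to -0.09 without control replicate 1, where it was no longer called. It was also not called without control replicate 2 (-0.15), KO replicate 2 (-0.14) or KO replicate 3 (-0.14).

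Of the 4 enzymes of polyamine synthesis, 2 were higher and 2 lower in the KO libraries. Odc1 (chromosome 12, 17544794 to 17551505) stood at 416, 401 and 402 CPM in control and 360, 367 and 359 CPM in KO libraries. The groups did not overlap, but the difference was small, with a log2 fold change of -0.17 (SE 0.034, 95% interval -0.24 to -0.10).

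Amd1, the S-adenosylmethionine decarboxylase that supplies aminopropyl groups (chromosome 10, 40287458 to 40302186), was higher in all KO libraries. It went from 122, 121 and 119 CPM in the control to 174, 167 and 176 CPM, a log2 fold change of 0.52 (SE 0.041, 95% interval 0.43 to 0.60). Its near copy Amd2, whose reads the counting may have split with those of Amd1, rose from 5.26 ± 0.852 to 7.47 ± 0.128 CPM (SD, n = 3, log2 fold change 0.51, edgeR adjusted p = 0.0039). Of 10 names of near copies of the set that were searched, Amd2 alone was in the table. With the counts of both genes summed, the log2 fold change of Amd1 was 0.52 as well. In the KO libraries the ratio of Odc1 to Amd1 per kb was 2.16, 2.28 and 2.12, below the 3.56, 3.44 and 3.52 of the control libraries.

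The 2 aminopropyl transferases moved apart. Srm, spermidine synthase (chromosome 4, 148591503 to 148594993), was at 55.4, 61.1 and 60.0 CPM in control and 74.0, 72.9 and 76.8 CPM in KO libraries. Its KO values were all above the control, with a log2 fold change of 0.34 (SE 0.053, 95% interval 0.24 to 0.45). Sms, spermine synthase (chromosome X, 157443855 to 157492287), stood at 115, 113 and 115 CPM in control and 103, 99.6 and 97.0 CPM in KO libraries. Here the KO values were all below, with a log2 fold change of -0.19 (SE 0.044, 95% interval -0.28 to -0.11). The ratio of Srm to Sms per kb was 1.81, 2.03 and 1.97 in the control libraries and 2.69, 2.75 and 2.98 in the KO libraries. The size of this ratio depends on the length used. With the mean length of the coding transcripts, Srm and Sms stood at 44.0 and 56.6 CPM per kb in the control. In the KO libraries they stood at 55.7 and 49.5 CPM per kb, so Srm was the more abundant only there.

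Sat1, the acetyltransferase that marks spermidine and spermine for export or oxidation (chromosome X, 155213132 to 155216449), was higher in all KO libraries. It stood at 129, 134 and 117 CPM in control and 164, 179 and 175 CPM in KO libraries, a log2 fold change of 0.44 (SE 0.046, 95% interval 0.35 to 0.53). Oaz1, the antizyme (chromosome 10, 80826656 to 80829290), differed least of the set. It was at 412, 409 and 393 CPM in control and 409, 420 and 455 CPM in KO libraries, and the groups overlapped. It had a log2 fold change of 0.08 (SE 0.037, 95% interval 0.01 to 0.16) and it was not called, although it was called without KO replicate 1 (0.12) or KO replicate 2 (0.10). Without KO replicate 3, its highest library, the log2 fold change was 0.04. The ratio of Odc1 to Oaz1 per kb was 0.759, 0.736 and 0.770 in the control libraries and 0.661, 0.657 and 0.592 in the KO libraries, so the enzyme's transcript stood lower against that of its inhibitor in every KO library.

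**Figure D2:**
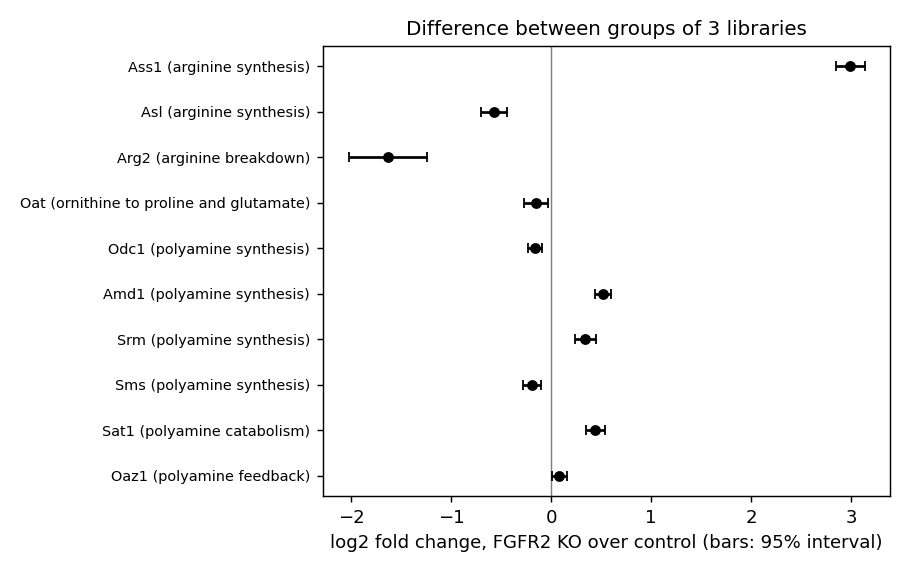
Log2 fold change, FGFR2 KO over control, of each of the 10 genes with its 95% interval from the fit over all genes. Ass1 stands alone at 2.99, Arg2 is lowest at -1.63, and the other 8 genes lie between -0.57 and 0.52.

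All 10 genes passed the filter on low counts. In the fit across all tested genes, 4 of them were called higher and 5 lower at an adjusted p below 0.05, where 27.1% of all tested genes were called higher and 27.5% lower, or 54.6% in either direction. The groups did not overlap for 8 of the 10, against 59.5% of all tested genes. Since the genes were named with this comparison known, these counts are a description. The median log2 fold change was -0.04 over the set and -0.01 over all tested genes, and the median size, without sign, was 0.39 and 0.21. Against a minimum fold change of 1.5, Ass1 and Arg2 were still called.

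Levels of different genes were compared per kb of annotated exon. In the control libraries Oaz1 was the most abundant (158 ± 4.05 CPM per kb), followed by Odc1 (119 ± 2.50) and Sat1 (45.7 ± 3.26; SD, n = 3). Srm, Amd1, Oat, Sms and Asl followed, at 36.8, 34.0, 24.9, 19.0 and 10.4 CPM per kb. Arg2 and Ass1 came last at 4.73 ± 0.831 and 4.72 ± 0.496 CPM per kb, and they were the only neighbours in this order whose libraries overlapped. In the KO libraries Ass1 stood sixth, at 37.4 ± 1.68 CPM per kb, and Arg2 was last at 1.54 ± 0.274 CPM per kb. The means of Srm and Amd1 changed places there, but their KO libraries overlapped (45.6 to 48.0 and 47.2 to 49.7 CPM per kb). The order depends on the length used: with the mean length of the coding transcripts Srm stood at 44.0 CPM per kb in the control, below Sms (56.6) and Oat (47.2), and Arg2, not Ass1, came last. With that length Amd1 stood above Srm in the control (61.5 CPM per kb) and in the KO libraries (87.9 against 55.7), so they did not change places.

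**Figure D3:**
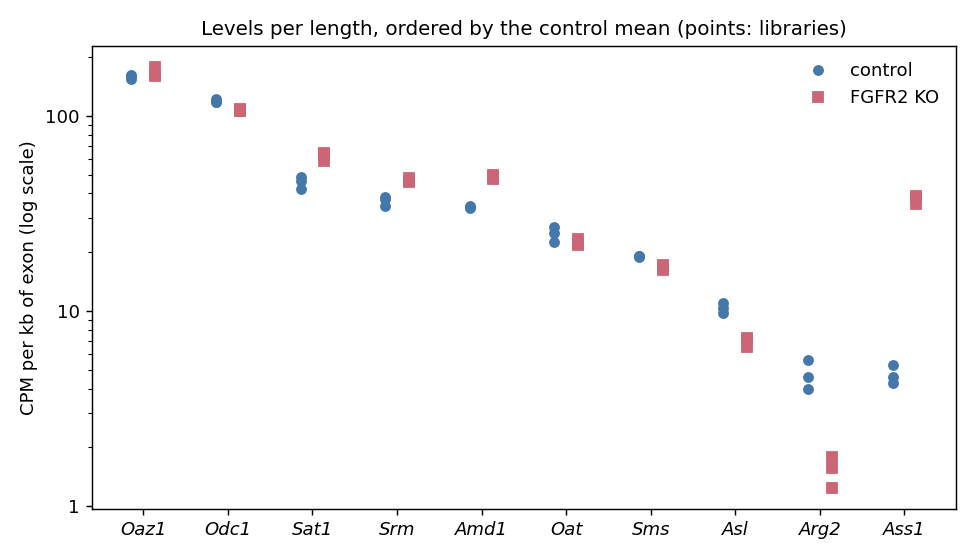
CPM per kb of exon (log axis) of the 10 genes in each library, ordered by the control mean, with control libraries as circles and FGFR2 KO libraries as squares. Ass1 lies at the low end in the control, at 4.29 to 5.27, and at 35.5 to 38.7 in the KO libraries.

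The rest of the pathway was taken from 6 lists of textbook genes that hold none of the 10. These lists were also chosen with earlier results of these data known, so the p-values of their genes are descriptive. Of 66 listed genes, 49 could be tested, of which 17 rose, 9 fell and 23 did not pass (edgeR quasi-likelihood, adjusted over all genes). The share called, 53.1%, was close to the 54.6% of all tested genes, and the median difference was 0.07 against -0.01 on the log2 scale.

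Among other polyamine enzymes and regulators, 3 of 6 tested genes fell and 1 (Amd2) rose, and the median was -0.51 on the log2 scale. The share called was 66.7%, against 54.6% of all tested genes, a difference that was not tested. Both oxidases of the catabolic arm fell. Smox, which oxidises spermine directly, was at 300, 330 and 301 CPM in control and 144, 144 and 133 CPM in KO libraries, a log2 fold change of -1.15 (edgeR adjusted p = 1.49e-23, SE 0.042). Paox, which oxidises the acetylated polyamines that Sat1 makes, was at 27.2, 25.4 and 22.7 CPM in control and 11.8, 13.4 and 13.2 CPM in KO libraries (log2 fold change -0.97 with SE 0.093 and edgeR adjusted p = 2.72e-11). For both, every KO library lay below every control library, whereas the Sat1 values lay above. Azin2, an antizyme inhibitor, fell from 40.7 ± 4.2 to 19.4 ± 0.978 CPM (SD, n = 3, log2 fold change -1.07, edgeR adjusted p = 1.91e-14). The inhibitor Azin1 (332.8 and 348.8 CPM) and the second antizyme Oaz2 (101 and 97.3 CPM) did not pass, with edgeR adjusted p of 0.11 and 0.325. Azin1 passed without KO replicate 3 (0.0486). Oaz3, Sat2, Satl1 and Aoc1 were too low to test.

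Of 10 tested transporters of arginine, other amino acids and polyamines, 5 rose and 1 fell, and the median was 0.32 on the log2 scale. The share called, 60%, was near the 54.6% of all tested genes. The arginine carrier Slc7a1 rose from 135.9 ± 3.91 to 173.5 ± 8.89 CPM (SD, n = 3, log2 fold change 0.35, edgeR adjusted p = 8.01e-09). Slc3a2, the heavy chain that carries Slc7a5 and Slc7a6 to the membrane, rose by 0.43, and these light chains rose by 0.28 and 0.49. Of the polyamine transporting ATPases, Atp13a3 rose from 136.3 to 211.8 CPM (log2 fold change 0.64 with SE 0.050 and edgeR adjusted p = 1.38e-13) and Atp13a2, the lysosomal one, fell from 21.6 to 14.3 CPM (log2 fold change -0.59 with SE 0.094 and edgeR adjusted p = 1.57e-06). Slc7a2, the carrier of macrophages and liver, was below 1 CPM in all libraries and was not tested. It had 1, 0 and 2 counts in control and 7, 14 and 13 counts in KO libraries.

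In the list of the urea cycle, nitric oxide and creatine branches, 3 of 11 tested genes rose and 3 fell. That is 54.5% called, against 54.6% of all tested genes. Arg1, the cytosolic arginase, had 0, 6 and 0 counts in the control libraries and 41, 23 and 31 counts in the KO libraries (log2 fold change 3.81 with SE 0.58 and edgeR adjusted p = 8.58e-07), which is 1.63 ± 0.517 CPM (SD, n = 3) in KO libraries. Nos2, the inducible nitric oxide synthase, fell from 4.22 ± 0.488 to 1.70 ± 0.517 CPM (SD, n = 3, log2 fold change -1.30, edgeR adjusted p = 1.62e-05). Arg1 and Nos2 are also expressed by macrophages. Of the leukocyte markers, Cd68 was at 13.7 and 5.97 CPM, lower in KO libraries as Nos2 was (log2 fold change -1.19, edgeR adjusted p = 7.88e-10), and Csf1r was at 0.921 and 1.22 CPM, near the level of Arg1, and did not pass (edgeR adjusted p = 0.415). Adgre1 was at 0 counts, and Ptprc, Lyz2 and Itgam had at most 3 counts in a library. The part of these markers in the values of Arg1 and Nos2 was not tested. The dimethylarginine hydrolases split, with Ddah1 up by 0.49 and Ddah2 down (log2 fold change -0.66). The aspartate carriers, which supply the synthase reaction, split as well, with Slc25a12 up by 0.44 and Slc25a13 down (log2 fold change -0.24). Cps1 and Nags had 0 counts in all libraries and Otc, the other mitochondrial step of the urea cycle, had 3 counts in KO replicate 2 and 0 in the other libraries, too few to test.

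Of 8 genes that link ornithine to proline and glutamate, 4 rose and 1 fell, or 62.5% called against 54.6% of all tested genes. Among those that rose were the pyrroline carboxylate reductase Pycrl, by 0.31, and Glud1, which links glutamate to the citric acid cycle, by 0.12. Glud1 was not called without control replicate 1 (edgeR adjusted p = 0.0707) or KO replicate 3 (0.0675). Prodh, which opens proline breakdown, fell from 20.8 to 15.7 CPM (log2 fold change -0.41, edgeR adjusted p = 2.65e-04). Aldh18a1, which makes the intermediate from glutamate that Oat makes from ornithine, did not pass (-0.11, edgeR adjusted p = 0.0732).

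Spermidine is the donor for hypusine, a modified lysine found in the translation factor eIF5A. Eif5a rose from 1025 ± 36.0 to 1341 ± 62.6 CPM (SD, n = 3, log2 fold change 0.39 with SE 0.034 and edgeR adjusted p = 4.71e-12). Of the hypusine enzymes, Dhps had a log2 fold change of 0.16 with an edgeR adjusted p of 0.0471, and did not pass when control replicate 1 (0.182), control replicate 2 (0.116) or KO replicate 2 (0.236) was left out. Dohh had 0.21 and did not pass (edgeR adjusted p = 0.0550), and passed without KO replicate 1 (0.0411).

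The next list held genes of the methionine cycle, which supplies S-adenosylmethionine, and of the recycling of methylthioadenosine left by spermidine and spermine synthesis. Of its 11 tested genes, 2 rose and 1 fell. That is 27.3% called, against 54.6% of all tested genes, a difference that was not tested. Mat2a, the synthetase, was at 245.7 and 255.3 CPM and did not pass (edgeR adjusted p = 0.206). Ahcy and Enoph1 rose by 0.36 and 0.34, and Mtap, the phosphorylase of methylthioadenosine, fell from 758.8 ± 13.2 to 682.2 ± 2.73 CPM (SD, n = 3, log2 fold change -0.15, edgeR adjusted p = 1.07e-04). Adi1 did not pass (-0.13, edgeR adjusted p = 0.0819).

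**Figure D4:**
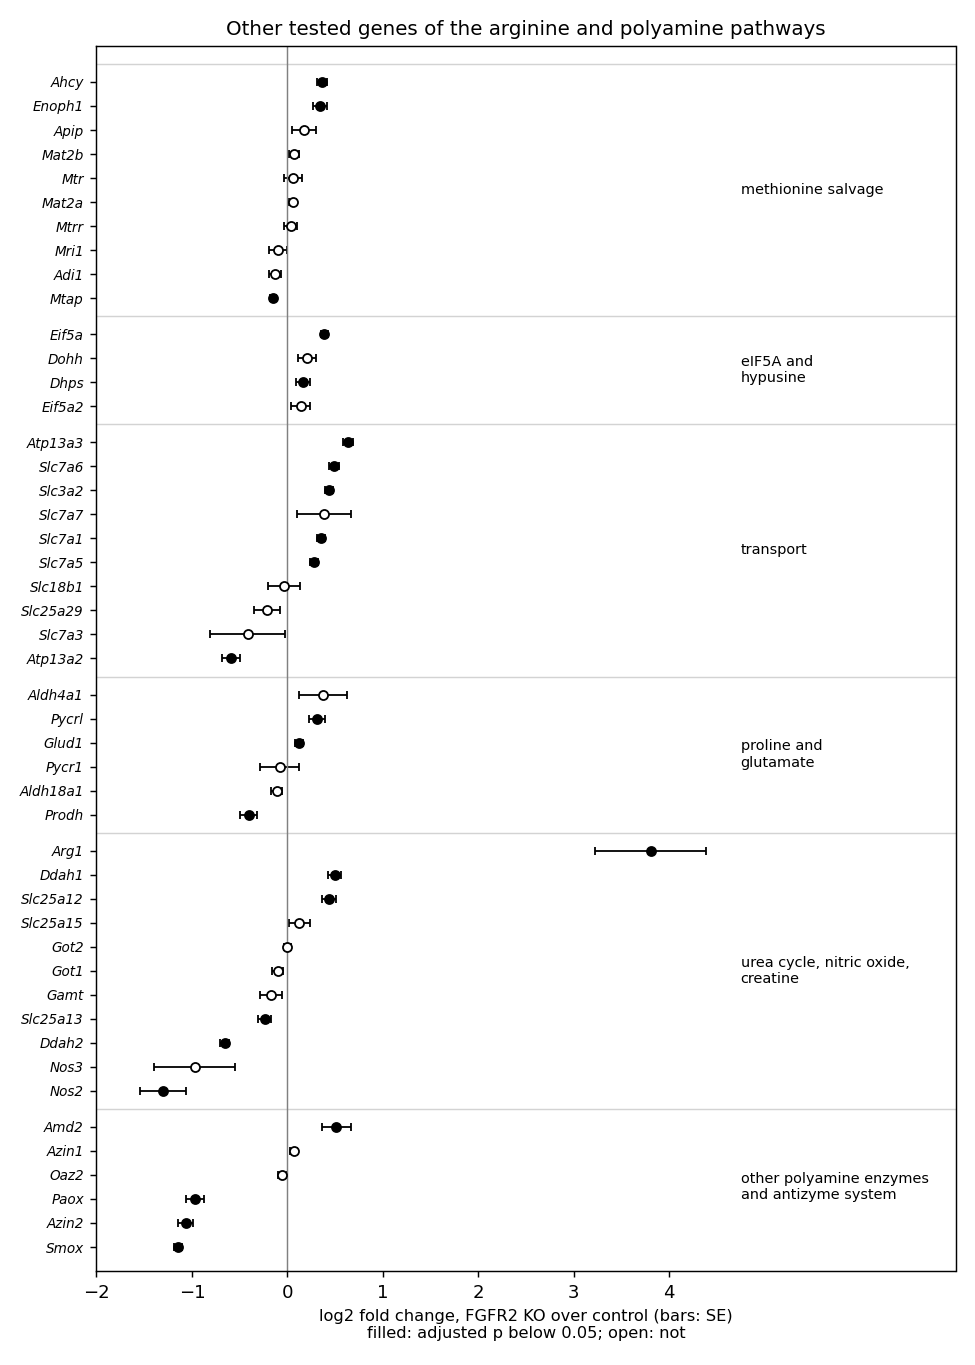
Log2 fold change, FGFR2 KO over control, with its SE, of 47 of the 49 tested genes of the 6 pathway lists, filled where the edgeR adjusted p was below 0.05. Nos2, Smox, Azin2, Nos3 and Paox have the lowest values, and Arg1 lies highest at 3.81, from very few counts.

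Genes of the MYC network and of the response to amino acid shortage were followed as well. Their lists were likewise chosen with earlier results known, and their p-values are descriptive. Myc fell, from 187.2 ± 2.10 to 167.2 ± 2.63 CPM (SD, n = 3, log2 fold change -0.16, edgeR adjusted p = 5.11e-04). In the list of the MYC network and its targets, 10 of 17 tested genes rose and 6 fell, or 94.1% called against 54.6% of all tested genes, with a median of 0.15 against -0.01. No test of that difference was made. The list mixes members of the network with targets, so its counts and median do not measure MYC activity. Mycl, a relative of Myc, went from 2.07 ± 0.224 to 5.66 ± 0.791 CPM (SD, n = 3, log2 fold change 1.46). Mycl was picked out after its values were seen, so it is described without a p-value. The members with the smallest adjusted p were Ldha (-0.68), Nme1 (0.89), Mxi1 (-0.62) and Mxd4 (0.48). Atf4, which drives the response to a shortage of amino acids, was at 297.5 and 295.4 CPM and did not pass (edgeR adjusted p = 0.836). Of 14 genes of that response 7 rose and 5 fell, or 85.7% called against the same 54.6%, with a median of 0.08. They included Phgdh (0.50), Atf5 (0.74) and Psat1 (0.32), which rose, and Ddit4 (-0.60), which fell.

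The genes whose 6 values lay nearest to those of Ass1, by distance on the log2 scale after subtraction of the control mean, were Anxa8, Masp1 and Krt16 (distances 0.330, 0.350 and 0.449 among 10062 genes of at least 5 CPM). Anxa8 went from 4.97 to 39.1 CPM, Masp1 from 6.62 to 59.5 CPM and Krt16 from 9.45 to 63.5 CPM. Nearest to Arg2 were Tenm4, Mmp3 and Fah (0.345, 0.370 and 0.422), of which Fah, the last enzyme of tyrosine breakdown, went from 40.7 to 13.8 CPM. With 6 libraries in 2 groups, such likeness rests mainly on the size of the difference between groups.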

How the data were processed

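The authors deposited raw counts of reads, as whole numbers by gene symbol, with a column for each library. FastQC 0.11.9, STAR 2.7.9a, featureCounts and R 4.1.1 are named in the submitters' processing notes, together with builds hg38 and mm10. The annotation release, the strand setting and the handling of reads with several positions are not stated in those notes or labels. Columns were matched to libraries by name, and no value column was left over. The counts were tested with edgeR 4.0.16 in R 4.3.3: filterByExpr (minimum count 10, total 15), TMM scaling, group as the only term, quasi-likelihood F-test, Benjamini-Hochberg over 12158 genes, threshold 0.05. The SE was obtained from the log2 fold change and its F statistic, and intervals have a level of 95%. Chi-square per degree of freedom was 2.28 to 4.69 within groups and 41.4 to 48.3 between them, so no library was a copy of another. The labels number replicates but name no separate cultures, so p-values reflect only how far these libraries spread, which may be technical. The test was run on simulated counts in which only a small part of the genes differed. That check does not cover data like these, where 54.6% of tested genes were called. Positions and exon lengths are from GENCODE M21 (mm10).

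The 10 genes and all lists were chosen with earlier results of these data known. Named genes are the set, Fgfr2, tested genes of the 5 lists closest to it, the 4 smallest adjusted p of the other lists with Myc, Atf4, Mat2a and Mtap, and the 3 nearest profiles of the 2 widest differences. Exon partners of Arg2, cell type markers and Mycl were also named. Values of 2 pathway genes and 1 marker are not reported here, although the counts over their lists include them. Alternatives were other scalings (DESeq2 size factors, upper quartile, library totals), filters, DESeq2 1.42.0, limma-voom 3.58.1, a minimum fold change of 1.5, a replicate block and leaving out each library.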

Additional observations from a re-analysis of the deposited data

How the results depend on the processing

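Under the other scalings, filters, tools and left-out libraries, no gene of the set and no other pathway gene changed the direction of a called difference. With a minimum fold change of 1.5, which by its construction drops small differences, 907 genes passed (402 up, 505 down), with 2 genes of the set (1 up, 1 down) and 5 other pathway genes (1 up, 4 down). Under every other alternative, the count of called genes in the set was 8 to 10. Leaving out each library in turn gave 5922 to 6276 changed genes in all (2962 to 3127 up, 2959 to 3168 down), 8 to 10 in the set (4 to 5 up, 4 to 5 down) and 25 to 29 other pathway genes (16 to 19 up, 9 to 11 down). Oat lost its call with DESeq2 and without control replicate 1, control replicate 2, KO replicate 2 or KO replicate 3, and Oaz1 gained one with library totals, with no filter, and without KO replicate 1 or 2. Dhps was also not called with upper quartile scaling (edgeR adjusted p = 0.0875), the filter of 5 CPM (0.0579) or the replicate block (0.0565), nor with DESeq2 (adjusted p = 0.0858), while Aldh18a1 and Adi1 were called under upper quartile scaling (edgeR adjusted p of 0.0323 and 0.0412) and Dohh with library totals (0.0438). Arg2 fell out of the filter of 5 CPM. Ass1 ran from 2.93 to 3.07 and Arg2 from -1.76 to -1.48 on the log2 scale. Upper quartile scaling gave 2969 up and 3603 down, with the median of all genes at -0.03. No pairing by replicate number was seen, as deviations of same-numbered libraries correlated at -0.0647 to 0.0026. With 3 libraries a group this cannot show that none were prepared in pairs, and the labels do not say. The replicate block gave 6443 changed genes and kept 9 calls in the set. Summing Amd1 with Amd2 and the second length measure were chosen after seeing the data. Arg2 rests on 36 to 163 counts a library, which limits its precision.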
